A study of Mus musculus with 6 samples.

Results

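Cells that met a rule for Cd209a type 2 dendritic cells made up 591 of the 32953 CD45+ cells sequenced from the arthritic mouse synovium. Their share was 1.79% (Wilson 95% interval 1.66 to 1.94%). A cell was counted as a member when it held at least 2 unique molecular identifiers (UMIs, each one counted RNA molecule) of Cd209a and at least 10 of H2-Ab1, and none of Siglech, Clec9a, Xcr1, Lyve1 or Cd79a. The members were thus chosen by the measured counts of these genes in the same cells that are described here, and no value of these genes is a result. The rule required no other gene of dendritic cells, so the name is a label and not a tested identity. Without the cells that held 5 or more UMIs of the macrophage gene C1qa, 518 members remained.

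The study used antigen-induced arthritis (AIA), in which male C57BL/6 mice were primed under the skin with 10 μg methylated bovine serum albumin (mBSA) in complete Freund's adjuvant and received 100 μg mBSA into the knee on day 21. From that day the mice were given either the vehicle phosphate-buffered saline (PBS, 2 samples) or PEPITEM (4 samples, 300 μg into the peritoneum), a peptide made as a polyethylene glycol conjugate. Joints were collected 3 days after the challenge. All 6 samples came from challenged joints, so that none shows the uninflamed synovium, and all were sorted on CD45 before droplet-based 3′ single-cell RNA sequencing (scRNA-Seq). The cells of all samples were deposited in 1 table whose barcodes carry library numbers from 1 to 6, and no label ties a number to a sample. PBS and PEPITEM were therefore not compared, and the libraries stand as 6 unlabelled samples, each with its own value and with no test between them.

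Conventional dendritic cells take up antigen in tissues, carry it on major histocompatibility complex (MHC) class II molecules and show it to T cells. Type 1 cells, which depend on Irf8 and Batf3 and bear Clec9a and Xcr1, are known for presentation to CD8 T cells, whereas type 2 cells depend more on Irf4, bear Sirpa and CD11b, and are known for presentation to CD4 T cells. Cd209a encodes a mouse relative of the human lectin DC-SIGN and marks type 2 cells as well as some dendritic cells that arise from monocytes.

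The members were found in every library. Libraries 1 to 6 held 88, 92, 114, 146, 90 and 61 members, which were 2.63, 1.58, 3.91, 3.65, 0.963 and 0.809% of their cells. The shares of libraries 3 and 4 were above, and those of libraries 5 and 6 below, the intervals of the other libraries. Because the cells were sorted and loaded to a target, a share gives the balance between cell types and not the number of cells in a joint.

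**Figure D1:**
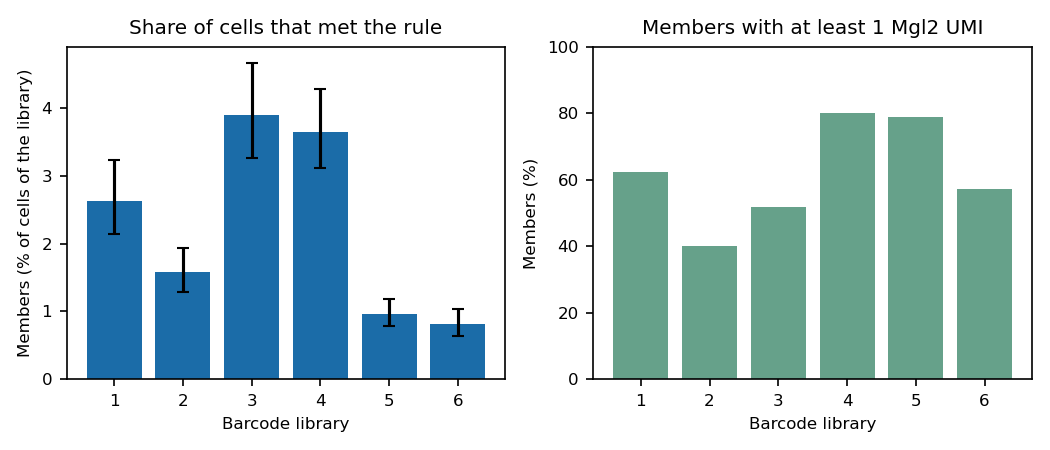
Left, members as a percentage of the cells of each barcode library, with Wilson 95% intervals as error bars, which cover counting error only. Right, the percentage of members with at least 1 Mgl2 UMI, which ran from 40.2% in library 2 to 80.1% in library 4.

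A member held a median of 20442 UMIs (2205 to 74048), against 11155 in all other cells, and 4037 genes (1191 to 6970). The rule began with 1001 cells with at least 2 Cd209a UMIs, of which 798 also reached 10 UMIs of H2-Ab1. Of these, 75 were left out for Siglech, 105 for Clec9a or Xcr1, 60 for Lyve1 and 18 for Cd79a, with some cells meeting several of these grounds. The typical member lay well inside the limits, with a median of 12 Cd209a UMIs (highest 114) and 178 H2-Ab1 UMIs (highest 656). Just inside the Cd209a limit stood 54 members with exactly 2 UMIs, and just outside it 83 cells with exactly 1 UMI that met every other criterion. Levels below are summed UMIs per 1000000 UMIs of the population (CPM), so that a cell counts by its depth. On that scale Mgl2 was at 413 CPM in the members with exactly 2 Cd209a UMIs, at 178 CPM in the cells just outside, and at 567 CPM in members with 3 or more. C1qa, a complement gene of macrophages, ran the other way at 403, 603 and 171 CPM. For H2-Ab1, 10 members held 10 to 14 UMIs and 5 cells just outside held 5 to 9.

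The markers of the label are described next. They were chosen with earlier results of these data known, so their detection is no independent test of the label. Mgl2, which encodes a galactose-binding lectin of type 2 cells and some macrophages, had a UMI in 63.3% of members, and the level was 555 CPM (lowest library 224, median 532, highest 787). Tmtc2 was detected in 68.7% at 551 CPM (lowest library 364, median 490.3, highest 888). Htr7, which encodes a serotonin receptor, was detected in 58.5% at 188 CPM (lowest library 108, median 176, highest 273). Of these 3 genes, 154 members had all, 266 had 2, 132 had 1 and 39 had none. Free RNA can place UMIs in cells that do not express a gene, so the shares were set beside those in 7482 cells with at least 3 Ly6g UMIs (neutrophils, median 14302.5 UMIs) and in 5910 cells with at least 3 Cd79a UMIs (B lineage, median 6075 UMIs). There Mgl2 was detected in 4.87 and 0.711%, Tmtc2 in 4.13 and 3.18%, and Htr7 in 5.81 and 1.12%. These cells were shallower at the median than the members (20442 UMIs). After thinning to 5000 UMIs, without shallower cells, Mgl2 was detected in 54.3% of members, 2% of Ly6g cells and 0.539% of Cd79a cells. In the same order, Tmtc2 was detected in 53.8, 2.1 and 2.45%, and Htr7 in 38.2, 2.26 and 0.711%. The deposited counts had already been cleaned of ambient RNA, which can itself lower shares in these reference cells. The shares therefore cannot gauge free RNA in the members.

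The members were set beside 5 other populations. These were type 1 dendritic cells (192 cells), migratory dendritic cells with Ccr7 and Fscn1 (63 cells, of which libraries 1, 3 and 4 held enough to compare), plasmacytoid dendritic cells with Siglech (610 cells), classical monocytes with Ly6c2, Ccr2 and Csf1r (3803 cells) and macrophages with C1qa (2235 cells). A gene was counted as higher or lower when the pooled CPM differed at least 2-fold and the direction was the same in every library with at least 10 cells of both populations, over genes at 20 CPM or more in either. Of all genes tested, 6.43% were higher and 4.21% lower than in type 1 cells, 19.2 and 11.8% than in migratory cells, 10.2 and 18.4% than in plasmacytoid cells, 6.94 and 8.12% than in monocytes, and 4.23 and 6.58% than in macrophages. Genes that chose a population were left out of the counts of listed genes, but not of these shares over all genes. Monocytes and macrophages were also chosen to hold no Cd209a, and monocytes fewer than 10 H2-Ab1 UMIs. Gaps to them in genes that vary with Cd209a or H2-Ab1 cannot be separated from these choices. Of the 3 markers, Mgl2 was counted as higher in the members than in each of the 5 populations, Tmtc2 was lower than in migratory cells, and Htr7 was lower than in migratory and type 1 cells. Mgl2 stood at 99.5 CPM in type 1 cells, 2.53 CPM in migratory cells, 11.5 CPM in plasmacytoid cells, 2.97 CPM in monocytes and 50.2 CPM in macrophages. Tmtc2 was at 1339 CPM in migratory cells, and Htr7 at 626 CPM there and 556 CPM in type 1 cells. Cells with at least 5000 UMIs were also thinned to 5000 UMIs, and shallower cells were left out. Mgl2 was then detected in 54.3% of members and 10.5% of type 1 cells, whereas Htr7 was detected in 38.2% of members and 70.5% of type 1 cells.

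RNA of other cell types was present and uneven. The 7 neutrophil markers summed to 36911 CPM in members (15412 to 68864 CPM over libraries) and 113884 CPM in other cells. S100a8 had 10 or more UMIs in 172 members and 1 to 9 UMIs in 1 member, and 384 members carried a stored S100a8 entry with the value 0. Among the genes that the rule required to be absent, 15 members carried such an entry for Cd79a, 11 for Lyve1 and 2 for Clec9a. The rule counted these entries as none. The 10 macrophage markers summed to 1497 CPM (774 to 2566 CPM), with Lyve1 at 0 by the rule and C1qa detected in 110 members (18.6%). The monocyte markers summed to 1135 CPM (889 to 1840 CPM). Markers of B cells summed to 59.5 CPM (46.4 to 89.4 CPM), of T and NK cells to 25.3 CPM (4.05 to 48.8 CPM), of mast cells and basophils to 0.639 CPM (0 to 4.22 CPM) and of fibroblasts to 1.63 CPM (0 to 2.82 CPM). Of the 110 members with C1qa 55 also had S100a8, against 118 of the 481 others. Neither S100a8 nor C1qa was detected in 363 members. In those Zbtb46 was at 116 CPM, Flt3 at 92.4 CPM and Ccl17 at 357 CPM, each above its level in all members. Mgl2 was near level, at 557 CPM against 555 CPM in all members. A stored S100a8 entry of 0 counted as not detected, so these members are not shown to be free of RNA from other cells. Across libraries, 138 barcode sequences occurred more than once (276 cells), among them those of 6 members.

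Class II genes were close in members and type 1 cells and higher than in plasmacytoid cells and macrophages. Without H2-Ab1, which chose the members and was limited in the monocytes, the other 11 listed genes of MHC class II presentation summed to 35765 CPM in members (28106 to 40015 CPM over libraries), with 30514 CPM in type 1 cells, 33562 CPM in migratory cells, 17262 CPM in macrophages, 4922 CPM in plasmacytoid cells and 2090.0 CPM in monocytes. Type 1 and migratory cells also had to hold at least 10 H2-Ab1 UMIs, whereas plasmacytoid cells and macrophages had no such minimum. Genes that vary with H2-Ab1 do not test the label, and the gap to monocytes follows from how both were chosen. The closeness to type 1 and migratory cells and the gaps to plasmacytoid cells and macrophages cannot be separated from these choices. Cd74, the invariant chain that guides class II molecules to the endosome, was at 18105 CPM (lowest library 14652, median 17756, highest 20183). H2-Aa, the alpha chain that pairs with H2-Ab1, was at 7204 CPM (lowest library 5632, median 7288, highest 8033), and H2-Eb1, a second beta chain, at 6140.3 CPM (lowest library 4475, median 5989, highest 6923). Every member had UMIs of all of these genes, and each library lay above the other cells of the same library.

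None of 11 class II genes was higher than in type 1 cells, where 6.43% of 6128 genes were higher and 4.21% lower, and the median log2 ratio of the 11 was 0.15 (all genes -0.07). H2-Ob, the beta chain of the peptide-editing inhibitor H2-O, was lower in members, at 27.7 CPM against 64.4 CPM. Against plasmacytoid cells 10 of 11 were higher, where 10.2% of 6823 genes were higher, and against monocytes, which had been chosen to hold fewer than 10 H2-Ab1 UMIs, 9 of 11 were higher, where 6.94% of 6437 genes were. Against C1qa macrophages 8 of 11 were higher, with a median log2 ratio of 1.28, where 4.23% of 6098 genes were higher. H2-DMb2, a chain of the peptide exchange factor H2-DM, was at 91.5 CPM (lowest library 45.7, median 89.4, highest 130.3) in members and 5.04 CPM in macrophages, and H2-Oa at 36.3 CPM (lowest library 28.6, median 34.3, highest 51.6) against 1.13 CPM. Against migratory cells 1 of 11 was higher (H2-DMb1, 734 against 149 CPM) and 2 lower (H2-DMb2, 323 CPM, and H2-Oa, 111 CPM, in migratory cells), where 19.2% of 6250 genes were higher and 11.8% lower. H2-DMb1 and H2-DMb2 are near-identical neighbors, so that reads may have been divided between them, and their separate values are uncertain.

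The genes of this group are read from promoters that share short elements, shown here because most chains were higher together than in monocytes, plasmacytoid cells and macrophages. RefSeq promoters (GRCm38.p6, 250 bases before to 50 after the start) held 9 of the 12 genes. The letters GATTGG, the core of the Y box bound by NF-Y, were found on either strand in 7 of these 9 genes and in 16.1% of all 32851 windows, while Ctss and Ifi30 held none. Each line gives 30 bases, 5′ to 3′ on the gene's strand, with GATTGG in capitals.
H2-Aa, chr17:34287855-34287884, minus strand: agagaattttctGATTGGttctggcgagtt
H2-Eb1, chr17:34305795-34305824, plus strand: tcctttgatgctGATTGGctcccagcactg
H2-DMb1, chr17:34153117-34153146, plus strand: gattcactcagtGATTGGtctgacctgcct
H2-DMb2, chr17:34145146-34145175, plus strand: aagtcacttagtGATTGGactgacttaact
H2-Oa, chr17:34092323-34092352, plus strand: gagaactgctctGATTGGctgcttaccgca
H2-Ob, chr17:34238835-34238864, plus strand: gtcttcgctcttGATTGGttaacagtgtga
The first base of the printed matches lay between positions -91 and -44 relative to the start. H2-Eb1 held a second match at -35, and H2-DMa, the remaining gene with a match, held 1 at -199, neither of which is printed. A match of letters is a description and shows no binding.

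Most C-type lectins were higher in members than in the other dendritic cells. Of 14 lectins tested, 11 were higher than in type 1 cells (6.43% of all genes) and 1 lower (4.21%), with a median log2 ratio of 1.77. Against migratory cells 11 were higher (19.2% of all genes). Against plasmacytoid cells 11 of 13 were higher (10.2%) and against monocytes 6 of 13 (6.94%). Against macrophages 4 of 13 were higher (4.23%) and 3 lower (6.58%), with a median log2 ratio of -0.50 (all genes -0.11). The lectin list includes Mgl2, and Cd209a itself was left out. Cd209d lies in the same cluster of related genes on chromosome 8 as Cd209a, with Cd209e between them (mm10, GENCODE vM21, Cd209a from 3743397 to 3748984 and Cd209d from 3871824 to 3878555, both on the minus strand). Cd209d was detected in 48.6% of members at 131 CPM (lowest library 69.7, median 101, highest 252). It was at 27.8 CPM in type 1 cells and 0.188 CPM in monocytes, but at 103 CPM in plasmacytoid cells, and was not counted as different from those. The other genes of the cluster were scarce in members, with Cd209c at 13.3 CPM, Cd209e at 7.52 CPM and Cd209b at 3.69 CPM. Reads of such similar genes may have been divided, so the values within the family are uncertain.

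Clec10a, the neighbor and close relative of Mgl2 on chromosome 11 (Mgl2 from 70130329 to 70137550 and Clec10a from 70156197 to 70170834, both on the plus strand), was detected in 76.3% of members at 278 CPM (lowest library 204, median 262, highest 325). All populations compared were lower, from 5.06 CPM in migratory cells to 111 CPM in plasmacytoid cells. Clec4b1, a receptor of the Dectin-2 group, was at 120.0 CPM (lowest library 79.5, median 130.4, highest 157) and was counted as higher than in each of the 5 populations, the nearest being macrophages at 29.4 CPM. Mrc1, the mannose receptor, was at 406 CPM (lowest library 213, median 284, highest 611), above type 1 cells (63.5 CPM) and monocytes (14.2 CPM) and was not counted as different from macrophages (576 CPM). Clec4a1, Clec4a2 and Clec4a3, receptors of the DCIR group, stood at 97.8, 153 and 114 CPM in members and 25.5, 37.6 and 35.7 CPM in type 1 cells. Ly75 (DEC-205) was the lectin that was lower than in type 1 cells, at 14 against 70.6 CPM, and it reached 508 CPM in migratory cells. Clec4a4 (DCIR2), known from splenic type 2 cells, was detected in 1.86% of members, and Esam, another marker of those cells, in 0.508%.

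**Figure D2:**
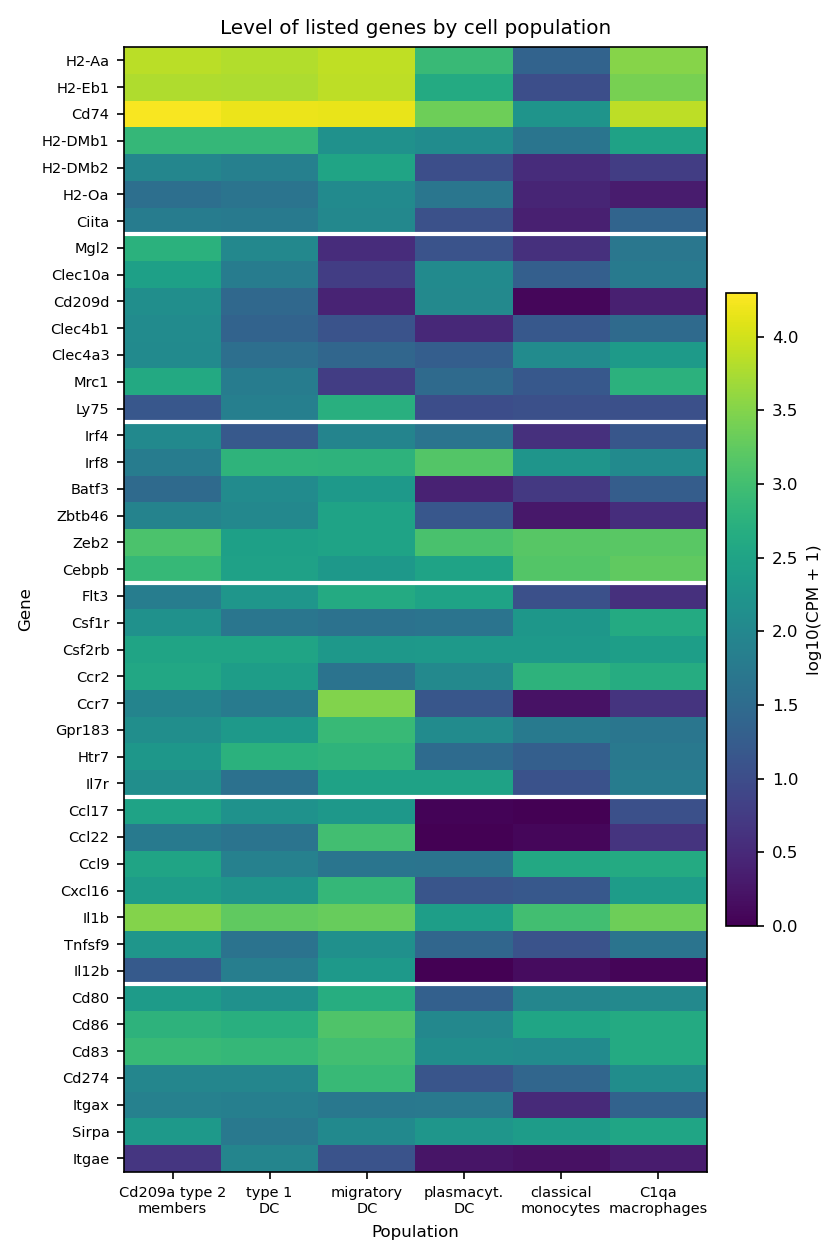
Levels of 42 genes in the members and the 5 other populations as log10(CPM + 1), pooled over libraries, with white lines between gene groups. Members share class II genes with type 1 and migratory cells, which were also chosen by H2-Ab1. Members hold more Mgl2 and Clec10a than any other population shown, and less Irf8, Batf3 and Flt3 than type 1 cells.

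The transcription factors separated members from type 1 cells along Irf4 and Irf8. Irf4 was detected in 58.9% of members at 107 CPM (lowest library 60.6, median 107, highest 142), against 14.6 CPM in type 1 cells, 2.96 CPM in monocytes and 12.9 CPM in macrophages. Irf8, which type 1 and plasmacytoid cells need, was at 62.9 CPM (lowest library 32.6, median 49.5, highest 134), against 632 CPM in type 1 cells and 1418 CPM in plasmacytoid cells. Each library had more Irf4 and less Irf8 in members than in type 1 cells, and no library of members overlapped the 567 to 738 CPM of Irf8 over libraries of type 1 cells. Batf3, the partner of Irf8 in type 1 cells, was at 29.2 against 119 CPM, and Id2 at 196 against 465 CPM. Zeb2 ran the other way at 1227 against 275 CPM, as did Cebpb at 747 against 290.2 CPM. In all, 4 of 16 factors were higher (6.43% of all genes) and 3 lower (4.21%) than in type 1 cells, with a median log2 ratio of 0.07.

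Zbtb46, a factor of conventional dendritic cells that monocytes and macrophages largely lack, was detected in 55% of members at 84 CPM (lowest library 69.2, median 80, highest 98). It was at 103 CPM in type 1 cells, 310.3 CPM in migratory cells, 0.904 CPM in monocytes and 2.64 CPM in macrophages. Detection in the Ly6g and Cd79a cells was 1.15 and 1.52%. Against monocytes 7 of 16 factors were higher, among them Zbtb46, Irf4, Batf3, Relb, Rbpj, Runx3 and Nr4a3, and Irf8 was lower. Over all genes 6.94% were higher and 8.12% lower than in monocytes. Klf4, which is needed by a subset of type 2 cells, was at 439 CPM (lowest library 332, median 415, highest 548) and was not counted as different from monocytes (371 CPM) or macrophages (756 CPM).

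Flt3, the receptor of the cytokine that sustains dendritic cells, was detected in 57.7% of members at 65.9 CPM (lowest library 54.6, median 64.9, highest 79.5). It was higher than in monocytes (10.4 CPM) and macrophages (2.88 CPM) and lower than in migratory (419 CPM), plasmacytoid (311 CPM) and type 1 cells (182 CPM). Csf1r, the receptor of the macrophage growth factor, was at 147 CPM (lowest library 113, median 135, highest 204), higher than in type 1 cells (47.2 CPM) and lower than in macrophages (427 CPM). Kit was at 30.6 CPM against 96.5 CPM in type 1 cells. Csf2rb, the shared chain of the receptors for GM-CSF, IL-3 and IL-5, was close in members and type 1 cells, at 323 and 321 CPM. Of the 8 markers of conventional dendritic cells fixed as a list, 7 were higher than in monocytes and 7 than in macrophages, where the medians were 2.86 and 3.21 on the log2 scale, against -0.17 and -0.11 for all genes. Monocytes and macrophages had been chosen to hold no Cd209a, and monocytes also fewer than 10 H2-Ab1 UMIs. The gaps of these markers to both populations cannot be separated from that choice. Of the same 8, 1 was higher and 3 lower than in type 1 cells. Over all genes 6.94% were higher than in monocytes and 4.23% than in macrophages, and 6.43% were higher and 4.21% lower than in type 1 cells.

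Monocyte and Fc receptor genes were also detected. Cd14 was at 907 CPM (lowest library 608, median 859, highest 1238), not counted as different from monocytes (988 CPM) and above type 1 cells (226 CPM). Fcgr1, which encodes CD64 and is used to mark macrophages and inflammatory dendritic cells, was detected in 46% at 80.5 CPM (lowest library 36.9, median 74, highest 134), with 97.4 CPM in monocytes and 267 CPM in macrophages. Ly6c2 was at 269 CPM (lowest library 127, median 261, highest 492), and in the 363 members with neither S100a8 nor C1qa it was at 138 CPM, Cd14 at 642 CPM and Fcgr1 at 63.2 CPM. The share of these levels that came from free RNA or from 2 cells in a droplet was not tested. Of 11 pattern and Fc receptor genes tested, 5 were higher and 1 lower (Tlr3, 2.41 against 43.3 CPM) than in type 1 cells. Against macrophages 0 were higher and 5 lower. The shares over all genes were 6.43 and 4.21% against type 1 cells and 4.23 and 6.58% against macrophages. Tlr2 was at 141 CPM in members and 52.7 CPM in type 1 cells.

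Maturation genes were lower in members than in migratory cells. Of 12 maturation genes tested against migratory cells, 10 were lower (11.8% of all genes) and 0 higher (19.2%), with a median log2 ratio of -3.65 (all genes 0.13). Fscn1, the actin-bundling protein that chose those cells together with Ccr7, was at 1.63 CPM in members. Ccr7 and Fscn1 were not among the 12, but other maturation genes can vary with them. The gap to migratory cells therefore cannot be separated from how those cells were chosen. Ccr7, the receptor that directs dendritic cells to lymph nodes, was detected in 23.4% of members at 85.2 CPM (lowest library 59.4, median 83.3, highest 132), against 3052 CPM in migratory cells. Of the 138 members with a Ccr7 UMI, 5 had Fscn1 and 54 had Ccl22. Cacnb3, Nudt17 and Socs2 were at 0.497, 0.497 and 5.32 CPM in members and 316, 145 and 493 CPM in migratory cells. Cd83 and Ccl17 were the 2 that were not counted as different, with Cd83 at 787 and 994 CPM. Compared with monocytes, 8 of 9 maturation genes were higher in members (6.94% of all genes), among them Traf1 at 322 against 28.4 CPM and Relb at 141 against 44.2 CPM.

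Ccr2, the receptor that brings monocytes from blood, was detected in 90% at 383 CPM (lowest library 322, median 382, highest 464), against 246 CPM in type 1 cells and 43 CPM in migratory cells. Cx3cr1 was at 75.8 CPM (lowest library 54.6, median 74, highest 99.6). Gpr183, an oxysterol receptor that positions dendritic cells, was at 133 CPM in members and 57.8 CPM in monocytes. Of 7 chemokine receptors, 3 were higher than in type 1 cells (Ccr1, Cx3cr1 and Cxcr4) and 0 lower, where 6.43% of all genes were higher and 4.21% lower. Ccr6, Cxcr3 and S1pr1 were at 0.781, 1.49 and 2.34 CPM.

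Among the chemokines, Ccl17 was the leading gene of the members over all other cells. Ccl17, a ligand of the chemokine receptor Ccr4 on T cells, was detected in 25.2% of members at 315 CPM (lowest library 6.15, median 329, highest 604), against 9 CPM in all other cells. It was at 153 CPM in type 1 cells, 193 CPM in migratory cells, at 10 CPM in macrophages and at 0.0352 CPM in monocytes. Ccl22, the other Ccr4 ligand, was at 56.8 CPM (lowest library 4.73, median 56.6, highest 96.2), and 1004 CPM in migratory cells. Of the 149 members with Ccl17, 53.0% had Ccl22, against 9.73% of the 442 without it. Ccl6 and Ccl9, ligands of Ccr1, were at 431 and 328 CPM, against 129 and 76.1 CPM in type 1 cells. Cxcl16 was at 235 CPM (lowest library 158, median 209, highest 345), higher than in monocytes (14.4 CPM). Ccl2 was at 107 CPM, lower than in monocytes (271 CPM) and macrophages (543 CPM). In all, 4 of 12 chemokines were higher than in type 1 cells and 0 lower (6.43 and 4.21% of all genes). Against monocytes 4 of 12 were higher and 1 lower (6.94 and 8.12%). Against macrophages 2 of 13 were higher and 3 lower (4.23 and 6.58%).

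Il1b, an inflammatory cytokine, was found in 93.1% of members at 3179 CPM (lowest library 2633, median 3130.5, highest 4262), against 1805 CPM in type 1 cells, 1009 CPM in monocytes and 2239.9 CPM in macrophages, and 68.3% of the Ly6g cells had it. Tnfsf9, the ligand of the T cell costimulator 4-1BB, was detected in 53.3% at 183 CPM (lowest library 135, median 167, highest 257), and was higher than in all populations but the migratory cells (145 CPM). Il12b, a subunit of IL-12 and IL-23, was found in 1.69% at 15.3 CPM (lowest library 0, median 11, highest 45.4), and without library 1 the level was 9.14 CPM. It was at 54.3 CPM in the 127 members with 2 to 4 Cd209a UMIs and at 3.61 CPM in the 341 with 10 or more. Il12a, Il23a and Il6 were at 0.994, 0.355 and 13.9 CPM. Tnf was at 61.7 CPM (lowest library 32.8, median 51.6, highest 102). Of 9 cytokines tested, 3 were higher than in type 1 cells and 0 lower (6.43 and 4.21% of all genes).

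Costimulatory genes ran in both directions against type 1 cells. Cd86 was detected in 95.6% of members at 609.7 CPM (lowest library 483, median 587, highest 751), with 519 CPM in type 1 cells, and Cd80 in 82.7% at 232 CPM (lowest library 166, median 228, highest 256), with 147 CPM. Cd40 was higher in members, at 115 against 56.6 CPM. The myeloid integrin Itgam (CD11b) was at 179.9 against 70.2 CPM and Sirpa, a marker of type 2 cells, at 199 against 54.3 CPM. The type 1 markers Itgae (CD103) and Cd24a were lower, at 3.83 against 88.4 CPM and 102 against 323 CPM, as were Havcr2 (TIM-3), Pdcd1lg2 (PD-L2) and Dpp4, at 83.9, 34.2 and 48 CPM against 258, 69 and 114 CPM. Together 3 of 15 genes of this group were higher than in type 1 cells and 5 lower (6.43 and 4.21% of all genes), with a median log2 ratio of 0.12. Against migratory cells 9 of 16 were lower (11.8% of all genes), among them Cd274 (PD-L1), 94.7 against 786 CPM.

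Receptors for type 2 cytokines and alarmins were present. Il1r2, the decoy receptor of IL-1, was detected in 82.6% at 684 CPM (lowest library 499.9, median 675, highest 906), higher than in type 1 cells (337 CPM) and monocytes (192 CPM), while 95.5% of Ly6g cells had it. Il7r was at 130.4 CPM (lowest library 96, median 130.3, highest 155), against 38.9 CPM in type 1 cells and 11 CPM in monocytes. Crlf2, which pairs with Il7r as the receptor of TSLP, was at 122 CPM (lowest library 104, median 121, highest 151), with 97.6 CPM in type 1 cells. Il4ra was at 106 CPM and Il1rl1, the IL-33 receptor, at 20.4 CPM. Of the 8 genes, 2 were higher and 1 lower (Htr7) than in type 1 cells (6.43 and 4.21% of all genes), and 4 were higher than in monocytes (6.94%).

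Beyond the lists, the 20 genes with the highest ratio of members to all other cells, at 50 CPM or more and higher in every library, were ordered by that ratio. Ccl17 led with a ratio of 35, followed by Wnt11, a secreted signaling protein (26.5), Mgl2 (24.4), Plat, the tissue plasminogen activator (23.7), Klrb1b (21.1) and Cd209d (19). The remainder were Zfp366, Ctnnd2, Tnip3, Tmtc2, Clec4b1, Klrd1, Cd226, Zbtb46, Clec10a, Tnfsf9, Pvrl1, H2-Eb1, Cd74 and H2-Aa, with ratios from 18.5 down to 8.09. Tnip3, an inhibitor of NF-κB signaling, was at 803 CPM (lowest library 608, median 763, highest 984) and was counted as higher than in each of the 5 populations, where it ran from 29.2 CPM in plasmacytoid cells to 152 CPM in type 1 cells. Wnt11 was detected in 51.8% of members at 78 CPM (lowest library 50.7, median 71.7, highest 103), with 25.9 CPM in type 1 cells and 4.94 CPM in macrophages. The receptors Klrb1b and Klrd1, better known from natural killer cells, were at 135 CPM (lowest library 81.4, median 135, highest 161) and 189.6 CPM (lowest library 103, median 198, highest 234). Klrb1b was at 118 CPM in type 1 cells and Klrd1 at 192 CPM in plasmacytoid cells, and in monocytes the 2 genes were at 0.352 and 2.04 CPM. Pvrl1 (nectin 1) and Cd226 (DNAM-1) were at 119 and 61.3 CPM.

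Over the whole table, against type 1 cells 394 genes were higher and 258 lower, against macrophages 258 were higher and 401 lower (6.58% of genes), against monocytes 447 were higher and 523 lower (8.12%), against plasmacytoid cells 694 were higher and 1253 lower (18.4%), and against migratory cells, over 3 libraries rather than 6, 1202 were higher and 737 lower. The populations differed in their number of cells, and the order of these counts was not tested. Among the 15 genes with the largest ratios in each direction against type 1 cells, named after their values were seen, were C1qb, Retnla, Lyz1 and Plat on the higher side and Cadm1, Ccser1, Itgae and P2ry14 on the lower side. Retnla was detected in 3.05% of members and Lyz1 in 14.2%, and both were highest in the members near the Cd209a limit, Lyz1 at 343 CPM with 2 to 4 Cd209a UMIs and 56.7 CPM with 10 or more, and Retnla at 256 and 13.9 CPM. C1qb was at 268 CPM (lowest library 87.1, median 258, highest 377), and 95 of the 110 members with C1qa had it, against 45 of the 481 without.

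Members were also described by their own Cd209a count, a value of the rule that rises with depth, so the ranges are a description and show no axis of variation. Members with 2 to 4, 5 to 9 and 10 or more Cd209a UMIs numbered 127, 123 and 341, with median depths of 18444, 18531 and 22699 UMIs. Clec10a was at 143, 207 and 343 CPM in the 3 ranges, with the highest range above the lowest in 6 of 6 libraries, and after thinning to 5000 UMIs it was found in 35.5, 49.2 and 62.6% of members. Zfp366, a transcription factor of dendritic cells, was at 29.3, 27 and 72.7 CPM (thinned shares 5.65, 9.02 and 18.5%) and Htr7 at 141, 134 and 221 CPM (32.3, 32.8 and 42.4%), each with the highest range above the lowest in 6 of 6 libraries. Mki67, a marker of cycling cells, was at 40.2, 66.5 and 92 CPM, above in 6 of 6 libraries, but its thinned shares in the lowest and highest range were 15.3 and 17.4%. Tnf was at 103, 38.3 and 55.8 CPM (thinned shares 21.8, 13.9 and 12.6%), with the highest range below the lowest in 6 of 6 libraries. Sirpa was at 221, 193 and 194 CPM, below in 6 of 6 libraries, but its thinned share was higher in the highest range than in the lowest, at 52.1%. Pooled differences that did not hold in every library were those of Retnla, a secreted product of alternatively activated macrophages, at 256, 50 and 13.9 CPM (lower in 4 libraries and higher in 2), and of Cxcl9, at 366, 331 and 131 CPM (3 and 3). Zbtb46 was at 75.6, 90.9 and 84.5 CPM (3 and 3).

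**Figure D3:**
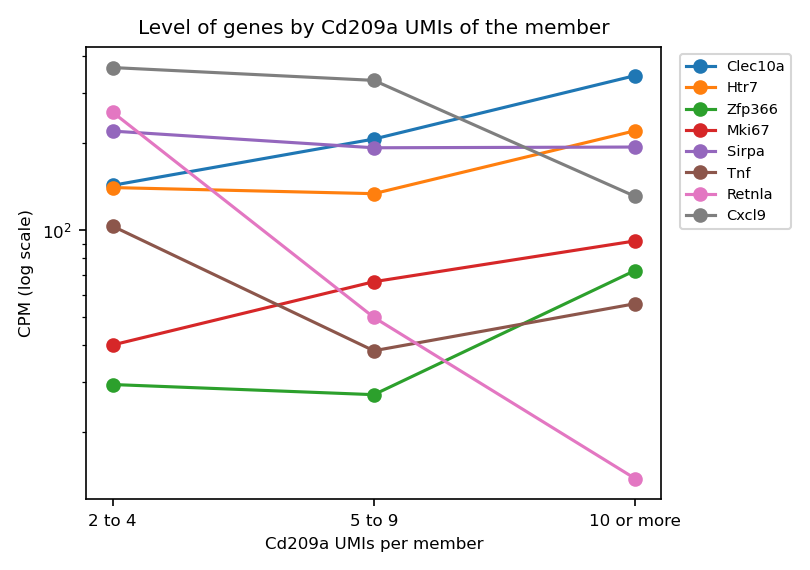
Level in CPM (log scale) of 8 genes in members with 2 to 4, 5 to 9 and 10 or more Cd209a UMIs, pooled over libraries. Clec10a, Htr7, Zfp366 and Mki67 end higher in every library and Sirpa and Tnf lower, the falls of Retnla and Cxcl9 were not shared by all libraries, and after thinning the share of members with Sirpa was not lower in the highest range and that with Mki67 was 17.4 against 15.3%.

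Mgl2 was detected in 374 members and not in 217. This split was chosen after the data were seen, and the members with Mgl2 were the deeper cells (median 22718.5 against 17661 UMIs). Shares were therefore also taken after thinning each cell of at least 5000 UMIs to 5000 UMIs, which kept 370 members with Mgl2 and 216 without. Over all genes 1.82% of 5865 were higher with Mgl2 (107 genes) and 0.529% were lower (31 genes). Higher with Mgl2 in 6 of 6 libraries were Irf4, at 129 against 60.7 CPM (thinned shares 39.2 and 20.8%), Mrc1, at 509 against 186 CPM, and Cxcl2, a chemokine for neutrophils, at 756 against 164 CPM. The macrophage genes C1qb, C1qc and Cd163 were higher as well, with Cd163, the hemoglobin scavenger receptor, at 67.7 against 6.48 CPM (thinned shares 21.1 and 3.7%). C1qa itself had a UMI in 25.7% of members with Mgl2 and 6.45% of those without. The 7 neutrophil markers were all at higher pooled levels with Mgl2, though none in every library, with S100a8 at 16899.8 against 11527 CPM (thinned shares 38.1 and 14.4%, higher in 5 of 6 libraries) and Mmp8 at 259 against 118 CPM. The part of RNA from other cells in this split was not tested. From the leading genes, Wnt11 was at 95.1 against 41.3 CPM and Cd226 at 82.2 against 16.5 CPM.

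Of the 8 listed markers of conventional dendritic cells, 2 were counted as lower with Mgl2 (Flt3 and Dpp4) and 0 as higher. Flt3 was at 102 CPM without and 49 CPM with Mgl2 (thinned shares 37 and 21.9%), lower with Mgl2 in 6 of 6 libraries. Dpp4 was at 75.9 and 35.1 CPM, Kit at 47.1 and 22.9 CPM, H2-Oa at 64.3 and 23.3 CPM, H2-Ob at 42.6 and 20.8 CPM, and the interferon-induced membrane protein gene Ifitm3 at 3029 and 1417 CPM. Klrd1, one of the leading genes, was at 309 and 134 CPM. Among genes named after their values were seen, Cd7 was at 161 and 36.1 CPM, Ifitm1 at 1369 and 391 CPM and Bach2, a transcriptional repressor, at 414 and 185 CPM. Of the other 6 markers, Kmo, Clec10a and Bcl11a were also lower with Mgl2 in 6 of 6 libraries, but by less than 2-fold, with Clec10a at 356 and 241 CPM. Cd209a and H2-Aa were near level, at 779.9 and 713 CPM and 6913 and 7340.0 CPM. The remaining 3 markers had higher pooled levels with Mgl2, Batf3 at 22.6 and 32.4 CPM (higher in 5 of 6 libraries), Itgax at 69 and 81.1 CPM (4 of 6), and Zbtb46 at 63 and 93.8 CPM, higher with Mgl2 in 4 libraries and lower in 2. Htr7 was at 279.8 and 146 CPM, lower with Mgl2 in 5 of 6. Since library 2 had the lowest share of members with Mgl2, at 40.2%, and library 4 the highest, at 80.1%, the split is not independent of the libraries, and the direction was therefore read within each.

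**Figure D4:**
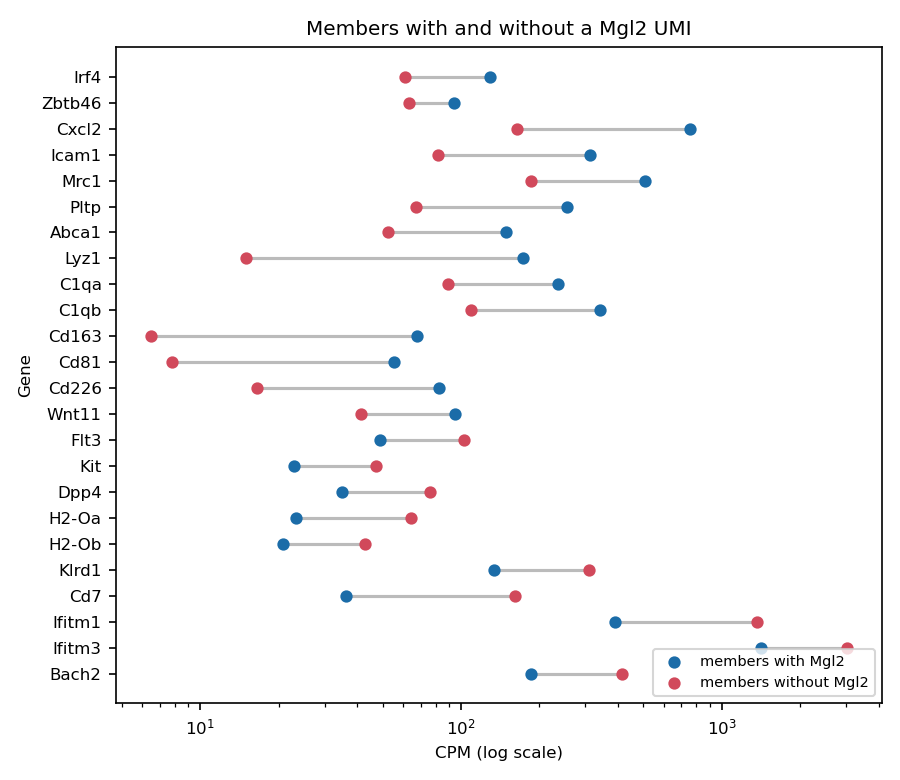
Level in CPM (log scale) of 24 genes in the 374 members with a Mgl2 UMI and the 217 without, joined by a line for each gene. Genes from Cxcl2 to Wnt11 lie higher with Mgl2 and genes from Flt3 down lie higher without it. Zbtb46 and C1qa were not counted as different.

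The libraries themselves differed in chemokine and interferon-stimulated genes. In library 2, Ccl17 was at 6.15 CPM and detected in 2.17% of members, against 201, 262, 395, 604 and 499.7 CPM in libraries 1, 3, 4, 5 and 6. Ccl22 was at 4.73 CPM there and between 40.1 and 96.2 CPM elsewhere, Cxcl9 at 19.4 CPM and between 34.5 and 525 CPM elsewhere, Cxcl10 at 26.5 CPM and between 62.6 and 477 CPM elsewhere, and Gbp2, an interferon-induced GTPase, at 12.3 CPM and between 54.9 and 239.6 CPM elsewhere. Library 2 was thus below the other 5 for each of these genes. Left out, it moved Ccl17 in the members to 369.5 CPM. The low Ccl17 of library 2 was seen in type 1 cells too, at 2.28 CPM. There libraries 1 and 6 were also low, at 9.29 and 3.48 CPM, and libraries 3 to 5 ranged from 189 to 258 CPM. In macrophages Ccl17 was at 0.168 CPM in library 2 and from 6.20 to 19.2 CPM elsewhere. In all cells outside the members it was at 1.08 CPM and from 6.69 to 26.0 CPM elsewhere. Library 2 was also lowest in those cells for Cxcl9, Cxcl10 and Gbp2, at 8.68, 29.5 and 15.8 CPM. The low values of these genes were thus not particular to the members, whereas Ccl22 in those cells was lowest in library 6. Cxcl9 depended on library 3, without which it was 142 CPM. Zbtb46 and Flt3 spanned narrower ranges, with Zbtb46 from 69.2 to 98 CPM and Flt3 from 54.6 to 79.5 CPM.

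Library 1 stood apart on other genes. The 12 interferon-stimulated genes summed to 4247 CPM in its members and to 2397, 3408, 2100, 2437 and 2320 CPM in libraries 2 to 6, and 10 of the 12 were highest in library 1. Isg15, a ubiquitin-like protein, was at 591 CPM there and from 106 to 213 CPM elsewhere, and without that library the pooled level was 148 CPM. Irf7, Rsad2 and Ifit1 were at 184, 153 and 68.1 CPM in library 1 and no higher than 58.1, 44.2 and 12.7 CPM in any other. The same library was highest for 11 of the 12 genes in classical monocytes and for 10 in C1qa macrophages, but for 3 in type 1 cells, and library 2 was lowest for 12 of 12 in macrophages, for 10 in type 1 cells and for 6 each in members and monocytes. Whether the libraries differed by treatment, by mouse or by handling cannot be told apart, because no label links them to samples.

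**Figure D5:**
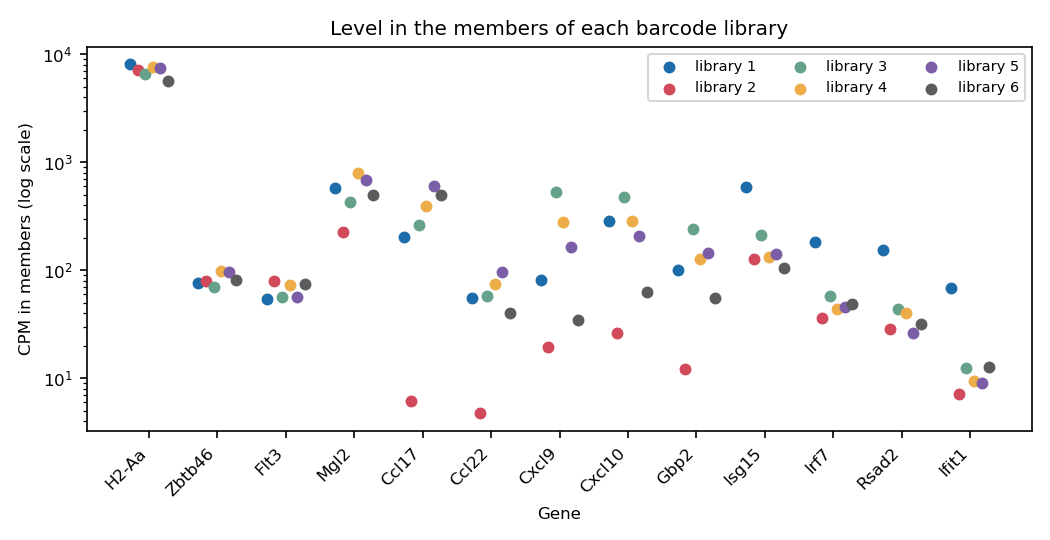
Level in CPM (log scale) of 13 genes in the members of each of the 6 barcode libraries. Library 2 lies lowest for Mgl2 and for the genes from Ccl17 to Gbp2, library 1 lies highest for Isg15, Irf7, Rsad2 and Ifit1, and H2-Aa, Zbtb46 and Flt3 lie close together.

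Promoter stretches of 4 of these genes are shown because they differed between libraries. The core of the interferon-stimulated response element, a pair of GAAA blocks with any 2 bases between them, was found on either strand in the RefSeq windows of 7 of the 10 listed genes in the promoter table and in 3.44% of all windows, and not in those of Ifit2, Oasl2 and Irf7. Each line gives 30 bases on the gene's strand with the element in capitals, in the opposite orientation for Ifit1 and Rsad2.
Isg15, chr4:156200871-156200900, minus strand: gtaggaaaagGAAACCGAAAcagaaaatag
Ifit1, chr19:34640794-34640823, plus strand: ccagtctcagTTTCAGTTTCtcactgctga
Rsad2, chr12:26456553-26456582, minus strand: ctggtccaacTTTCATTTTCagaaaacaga
Cxcl10, chr5:92349083-92349112, minus strand: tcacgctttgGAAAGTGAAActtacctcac
Isg15 held 3 overlapping matches and Ifit1 held 2, and 1 of each is shown. Cxcl10 was highest in library 3, at 477 CPM, and was at 287 CPM in library 1 and 288 CPM in library 4.

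Cycling genes were detected in part of the members. Mki67 had a UMI in 32.5% at 76.9 CPM (lowest library 49.7, median 75.6, highest 142) and Top2a in 16.6% at 62.8 CPM (lowest library 42.7, median 59.7, highest 119.6). Of the 192 members with Mki67, 35.4% had Top2a, against 7.52% of the others. Of 11 cell cycle genes, 9 were lower than in monocytes and 0 higher (8.12 and 6.94% of all genes), and 1 was lower than in type 1 cells (4.21%). In contrast, 5 of 6 were higher than in macrophages (4.23%) and 5 of 6 than in migratory cells (19.2%). After thinning, Top2a was found in 9.04% of members, 16.8% of type 1 cells, 28% of monocytes and 3.83% of macrophages. Ube2c, a late cycle gene, was at 175 CPM in library 6 and from 13 to 34.2 CPM in the other 5.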

How the data were processed

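CD45+ cells sorted from the digested synovium of AIA mice were profiled by 3′ scRNA-Seq (10x kit version 3.1). The authors deposited 1 matrix of UMI counts, 20394 genes by 32953 cells, made with Cell Ranger (version 7 in the submitters' processing notes) on mm10, and per the study's methods then cleaned of ambient RNA with SoupX, of doublets with DoubletFinder and of poor cells with Seurat. The deposited counts are therefore already corrected, and 1.68% of stored entries hold a 0. Ambient RNA that remained, and doublets that were missed, can raise genes of other cell types. No doublet caller was run here.

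The members and gene lists were chosen with earlier results of these data known. Levels are summed UMIs per 1000000 UMIs of a population, with no length scaling, and levels were not compared between genes. Named genes were those of the 25 fixed lists (216 of 219 genes were in the table, without Clec7a, Sting1 and Pclaf) and the 20 with the highest ratio of members to other cells at 50 CPM or more. The 5 other populations were assigned by UMI minimums of their defining genes, and monocytes and macrophages also by having no Cd209a. Shares were also taken after thinning cells of at least 5000 UMIs to 5000 UMIs, which left out 6240 of the 32953 cells. Because no label links the 6 barcode libraries to the 2 PBS and 4 PEPITEM samples, no test, SD or treatment comparison was made, and intervals cover counting error only. Libraries held 2919 to 9345 cells and 47273569 to 123367661 UMIs. Scripts ran in Python 3.11.15 (pandas 2.3.3, scipy 1.17.1 and numpy 2.4.6, with figures from matplotlib 3.10.9) and were tested on simulated data. Promoter windows came from RefSeq (GRCm38.p6). Values of 2 listed genes are not reported here.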

Additional observations from a re-analysis of the deposited data

How the results depend on the processing

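The share of members, 1.79% of cells, was 2.05% with at least 1 Cd209a UMI and 1.63% with at least 3. It was 1.57% without cells holding 5 or more C1qa UMIs and 2.42% with no veto genes, and ran from 1.54 to 2.12% with 1 library left out. After thinning to 5000 UMIs it was 1.58%, from 423 cells that still met the rule among 26713 cells deep enough to thin. The 6240 shallower cells were left out of that share. Before thinning, 586 of the 591 members had that depth. With genes at 5 CPM or more included, 432 genes were lower than in type 1 cells, 1996 higher than in migratory cells, 1944 lower than in plasmacytoid cells, 962 lower than in monocytes and 488 higher than in macrophages. At a fold of at least 3, the genes higher and lower numbered 121 and 99 against type 1 cells, 678 and 453 against migratory cells, 409 and 652 against plasmacytoid cells, 266 and 218 against monocytes, and 131 and 169 against macrophages. Of 432 alternative values for the levels of 36 genes, 11 values in 6 genes moved by over 1.5 times. Among these, Cxcl9 was at 142 CPM without library 3, Isg15 at 148 CPM without library 1, Il12b at 9.14 CPM without library 1 and Ly6c2 at 138 CPM in members with neither S100a8 nor C1qa. The causes were not tested. No paired analysis was possible because no label links the barcode libraries to samples and no test was made.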
